A study of Mus musculus with 12 samples.

Results

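The genes of sterol and fatty acid synthesis and their transcriptional regulators were examined in the embryonic pancreas of β-catenin KO mice. The set was a list of 34 genes named for their known roles, and every probe set whose only gene symbol was one of them was used. The list was drawn up with earlier results of these data known. Of the 34, 33 were measured, on 76 of the 45037 probe sets tested, among 18193 named genes in all. Acat2, the cytosolic thiolase that begins the pathway, is not analysed here.

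KO embryos were Pdx1Cre/+ and β-catenin flox/flox, and the other embryos were wildtype, all from an intercross of mice heterozygous for both. Whether a wildtype embryo carried Cre is not given in the sources used here. RNA came from the whole pancreas of 1 embryo per array, with 4 KO and 2 wildtype pancreata at E14.5 and 4 KO and 2 wildtype pancreata at E16.5. Cre was driven by the Pdx1 promoter, which is active in the pancreatic epithelium and not in the mesenchyme, vessels or nerves that a whole pancreas also holds, and the study considered recombination likely to be mosaic. Every deposited value is the ratio of a pancreas to the mean of the 2 wildtype pancreata of its own day, so that 1 is the wildtype mean, no value shows how abundant a transcript was, and the tissue could not be checked against the presence of its defining markers.

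Cholesterol is built from acetyl-CoA through mevalonate, farnesyl diphosphate and squalene, and fatty acids are built from the same precursor by carboxylation, elongation and desaturation. Both pathways are switched on by the sterol regulatory element binding proteins (SREBPs), which Srebf1 and Srebf2 encode. SREBPs are made in the membrane of the endoplasmic reticulum and are escorted to the Golgi by Scap, where they are cut and released to enter the nucleus. When sterols are plentiful, the Insig proteins hold Scap and its SREBP in the endoplasmic reticulum, and Insig1 is itself a gene that SREBPs induce. In an acinar cell, whose main work is to secrete, membrane lipid is needed for the endoplasmic reticulum and the zymogen granules.

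The RefSeq windows from 250 bases before to 50 bases after the transcription start (build GRCm38.p6) were available for 27 of the 34 genes, in 36 windows, and are shown first because the pathway is known by its promoters. Both strands were searched for the sterol regulatory element core TCACNCCAC, the CCAAT box CCAAT, the Sp1 box GGGCGG and the E-box CACGTG, and overlapping matches were each counted. The CCAAT box was in a window of 22 of the 27 genes (81.5%) and of 41.1% of all 27025 genes. The Sp1 box was in 22 of the 27 (81.5%) and in 38.2% of all genes, and the E-box was in 6 of the 27 (22.2%) and in 8.09% of all genes. The exact core of the sterol regulatory element was in 1 of the 27 genes, Hmgcs1 (3.70%), and in 1.44% of all genes. These shares are descriptions of the letters in these windows and were not tested. The window of Insig1 is shown because Insig1 had the lowest fold change of the set at E16.5, that of Idi1 because it had the lowest at E14.5, and that of Hmgcs1 because it alone held the sterol core. All are written 5′ to 3′ on the gene's own strand, with CCAAT boxes, E-boxes and the sterol core in capitals on whichever strand they were read, so that a CCAAT box on the opposite strand appears as ATTGG.
Insig1, chr5:28071162-28071461, plus strand: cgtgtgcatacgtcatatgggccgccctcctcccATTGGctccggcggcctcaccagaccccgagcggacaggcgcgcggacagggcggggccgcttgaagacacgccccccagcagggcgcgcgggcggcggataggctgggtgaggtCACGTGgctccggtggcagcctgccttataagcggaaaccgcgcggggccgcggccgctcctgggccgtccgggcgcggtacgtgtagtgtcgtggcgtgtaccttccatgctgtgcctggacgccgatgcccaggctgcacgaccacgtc
Idi1, chr13:8885356-8885655, plus strand: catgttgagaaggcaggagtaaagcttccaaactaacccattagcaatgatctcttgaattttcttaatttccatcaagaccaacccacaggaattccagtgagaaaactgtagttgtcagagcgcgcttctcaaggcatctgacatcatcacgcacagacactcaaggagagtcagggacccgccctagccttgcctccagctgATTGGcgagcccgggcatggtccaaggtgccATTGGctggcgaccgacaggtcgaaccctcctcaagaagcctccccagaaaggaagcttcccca
Hmgcs1, chr13:119690101-119690400, plus strand: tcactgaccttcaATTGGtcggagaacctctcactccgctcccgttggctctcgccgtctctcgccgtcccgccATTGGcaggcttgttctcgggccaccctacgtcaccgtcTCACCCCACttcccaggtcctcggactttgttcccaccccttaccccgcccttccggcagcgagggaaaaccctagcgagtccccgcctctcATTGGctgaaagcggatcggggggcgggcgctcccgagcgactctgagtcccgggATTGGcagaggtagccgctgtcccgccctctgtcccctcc
Insig1 has 1 CCAAT box and 1 E-box in this window, Idi1 has 2 CCAAT boxes, and Hmgcs1 has 4 CCAAT boxes beside the sterol core, which begins 137 bases before the start site.

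Of the 33 measured genes, on 1 probe set each, 0 passed the limit for a call at E14.5 and 1 passed it at E16.5, when Insig1 fell. KO was compared with the wildtype of its day on log2 ratios with limma, and p was adjusted over all 45037 probe sets with 0.05 as the limit. The share of all probe sets called at E14.5 was 0.00888% lower and 0.00222% higher, and at E16.5 it was 1.82% lower and 0.802% higher, or 2.15% of genes lower and 0.879% of genes higher when 1 probe set was taken per gene. The 33 genes had a median log2 fold change of -0.02 at E14.5, beside 0.01 over all genes, and of -0.05 at E16.5, beside 0.03. On all 76 probe sets 0 were called at E14.5 and 3 were called at E16.5: Insig1 and 1 of the 3 for Scd2 fell, and 1 of the 2 for Me1 rose. The groups hold 2 wildtype pancreata a day, and the p values measure only the spread between these arrays, each from 1 embryo.

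**Figure D1:**
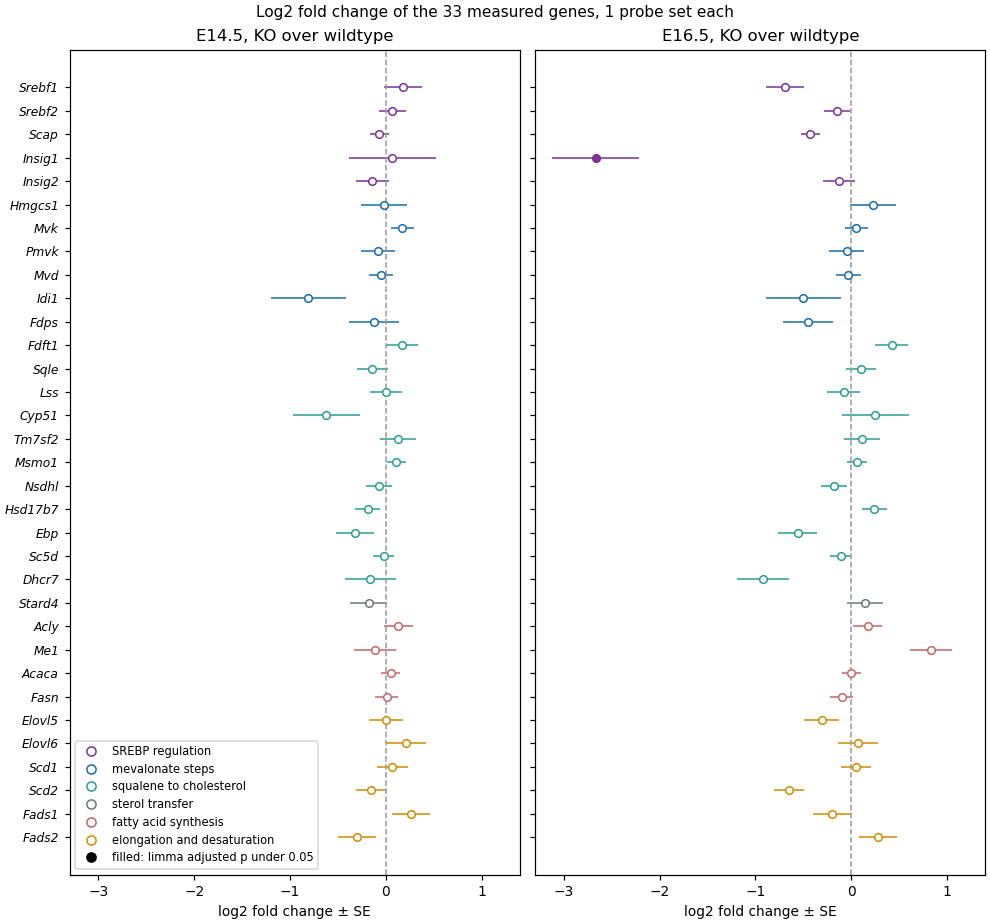
Log2 fold change of KO over wildtype, with its standard error, for the 33 measured genes on 1 probe set each at E14.5 (left) and E16.5 (right), coloured by role; filled points have a limma adjusted p under 0.05. Insig1 at E16.5 is the 1 filled point, at -2.67.

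Insig1, which retains the SREBP complex when sterols are plentiful, had the lowest ratios of the set at E16.5. The study had already listed this gene, from these same arrays, among its most downregulated at that day. On that day the KO pancreata KO_541J, KO_541L, KO_591C and KO_591D were at 0.142, 0.0719, 0.198 and 0.257, against 0.712 and 1.29 in the wildtype pancreata WT_622A and WT_628G. Every KO value was under the lower wildtype value, and the groups did not overlap. Insig1 fell by 2.67 on the log2 scale (standard error, SE, 0.45; limma adjusted p = 0.0131). At E14.5 the KO pancreata KO_540C, KO_540G, KO_615A and KO_615B were at 1.22, 0.643, 1.50 and 1.01, against 0.961 and 1.04 in WT_522B and WT_522C. Here the KO values lay on both sides of the wildtype values, and the log2 fold change was 0.07 (SE 0.45, limma adjusted p = 0.993). The KO effect at E16.5 minus that at E14.5 was -2.73 (SE 0.64), which did not pass (limma adjusted p = 0.125). Over 22 alternative analyses the E16.5 value kept its sign and its call held in 17 (adjusted p = 0.00462 to 0.331). Without WT_628G the log2 fold change was -2.24 and the call was lost (limma adjusted p = 0.0963). That leaves 1 wildtype pancreas at E16.5, which is assumed to vary like the pancreata of the other groups, here and wherever a wildtype pancreas is left out.

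In whole pancreata a lower ratio can come from fewer cells that express a gene or from less RNA per cell, and these cannot be told apart. In the same E16.5 KO pancreata 12 of the 20 measured acinar marker genes fell and 19 were below wildtype. The median log2 ratio of those 20 genes was -3.64 in KO_541L, -2.89 in KO_541J, -1.91 in KO_591C and -1.28 in KO_591D, against -0.13 and 0.12 in the wildtype pancreata. The 4 KO pancreata stood in the same order for Insig1, lowest in KO_541L and highest in KO_591D. Other genes with all KO values below wildtype were divided. Ebp and 1415824_at of Scd2 kept this order. Srebf1, Dhcr7, the chosen probe set of Scap and the other probe sets of Scd2 did not, with KO_591C the highest. Of 16 genes of protein folding in the endoplasmic reticulum 4 fell, and of 12 mesenchyme markers 3 rose, with median log2 ratios per KO pancreas of 0.20 to 0.84. Of 9 duct markers 3 fell, with median log2 ratios of -0.82 to -0.52 in the KO pancreata, against -0.08 and 0.07 in wildtype. Of 10 neuron and glia markers 2 rose (medians 0.37 to 0.80 in KO), and of 9 leukocyte markers 1 rose and 1 fell. Of 14 endocrine markers 0 were called by limma (4 at an unadjusted p under 0.05), with medians of -0.16 to 1.03 in KO. Of the liver markers, whose tissue makes much cholesterol and fat, 0 of 8 were called by limma (3 at an unadjusted p under 0.05), and of the adipocyte markers 1 of 7 rose, the lipase Lpl. At E14.5 the acinar medians of the KO pancreata ran from -0.44 to 0.41 and 0 of 20 acinar markers were called (1 at an unadjusted p under 0.05). The part of these cell types in the values of the lipid genes was not tested. Over all genes 8.84% were lower and 9.58% higher at an unadjusted p under 0.05 by limma at E16.5, and 5.51% and 2.56% at E14.5.

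The other 4 regulators of the SREBP pathway had log2 fold changes below 0 at E16.5 without passing the limit. Scap, the SREBP escort, was at 0.709, 0.699, 0.779 and 0.774 in KO_541J, KO_541L, KO_591C and KO_591D, against 1.06 and 0.941 in wildtype. All 4 KO values were below both wildtype values, and the log2 fold change was -0.43 (SE 0.10, limma adjusted p = 0.0503), a value that passed in 4 of 21 alternative analyses (adjusted p = 0.0244 to 0.407). Its second probe set, 1442885_at, had KO values of 0.986 to 1.06 and a log2 fold change of 0.03. Srebf1, the source of the SREBP forms that act mainly on fatty acid genes, was at 0.570, 0.565, 0.650 and 0.612 in KO, against 1.25 and 0.748 in wildtype. The KO values again lay below both wildtype values, which were themselves far apart, and the log2 fold change was -0.69 (SE 0.20, limma adjusted p = 0.0889). Against WT_622A alone, the higher of the wildtype values, it was -1.06 (limma adjusted p = 0.0255, the lowest of 22 alternatives, the highest being 1), with the spread taken from the other groups. Against WT_628G alone it was -0.32 (limma adjusted p = 0.545). At E14.5 Srebf1 was at 1.36, 1.03, 1.03 and 1.08 in KO, against 0.849 and 1.15 in wildtype, and Scap was at 1.01, 0.858, 1.03 and 0.917 in KO, against 1.02 and 0.984 in wildtype. Both genes overlapped wildtype at that day. The difference between the days was -0.87 for Srebf1 and -0.36 for Scap, neither of which passed (limma adjusted p = 0.266 and 0.402).

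Srebf2, which encodes the SREBP that acts mainly on sterol genes, was at 0.780, 0.874, 0.880 and 1.06 in KO at E16.5, against 1.14 and 0.864 in wildtype. The groups overlapped, with a log2 fold change of -0.15 on this probe set and -0.12 on the other. At E14.5 its 4 KO values were 1.03, 1.03, 1.17 and 0.983, against 1.04 and 0.958 in wildtype, which also overlapped. Insig2, the close relative of Insig1, was at 0.770, 0.947, 1.21 and 0.778 in KO at E16.5, against 0.896 and 1.10 in wildtype. Its values spanned those of wildtype on this probe set (log2 fold change -0.13), and the other 2 gave -0.49 and -0.62 on the log2 scale (limma adjusted p = 0.181 and 0.428). At E14.5 Insig2 was at 0.991, 0.845, 0.970 and 0.829 in KO, against 0.992 and 1.01 in wildtype, so that all 4 KO values were below both wildtype values by a small margin in KO_540C (log2 fold change -0.14, limma adjusted p = 0.947). The 5 regulators had a median of -0.43 at E16.5 (log2 fold change, 5 of 5 below 0) and of 0.07 at E14.5 (2 of 5 below 0). Over all genes 7727 of 18193 were below 0 at E16.5.

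**Figure D2:**
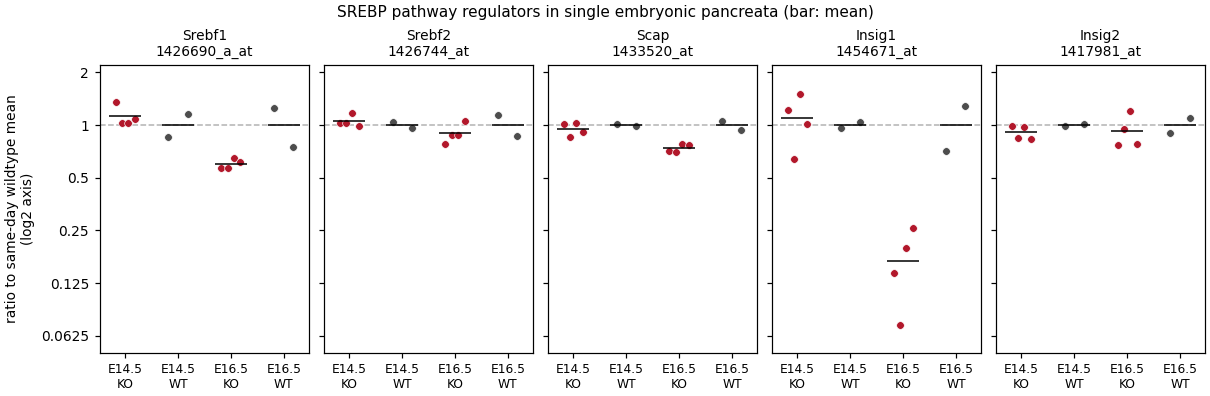
Ratio of each pancreas to the wildtype mean of its day (log2 axis) for Srebf1, Srebf2, Scap, Insig1 and Insig2, 1 point per pancreas, KO in red left of wildtype in grey, with the group mean as a bar. The 4 KO values of Insig1 at E16.5 lie between 0.0719 and 0.257, while those of Srebf2 and Insig2 overlap wildtype.

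The 6 measured enzymes of the mevalonate steps, which carry acetyl units to farnesyl diphosphate, had at E16.5 a log2 fold change of -0.04 in the median, and 0 were called by limma at either day (0 at an unadjusted p under 0.05 at either day). Hmgcs1, the synthase that makes HMG-CoA, is on 5 probe sets and its log2 fold changes at E16.5 ran from -0.05 to 0.37. Its chosen probe set was at 1.61, 0.948, 1.07 and 1.13 in KO, against 1.14 and 0.864 in wildtype, with KO_541J the highest. Mvk, mevalonate kinase, was at 1.02, 0.913, 1.01 and 1.21 in KO at E16.5, against 1.03 and 0.969 in wildtype. The decarboxylase Mvd and the kinase Pmvk also stayed near 1, with KO means of 0.974 ± 0.0574 and 0.964 ± 0.144 (SD, n = 4 each). Fdps, which makes farnesyl diphosphate, was at 0.745, 0.488, 0.793 and 0.879 in KO at E16.5, against 0.760 and 1.24 in wildtype. KO_541J and KO_541L were below both wildtype values and the other 2 KO pancreata lay between them (log2 fold change -0.45, limma adjusted p = 0.429).

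Idi1, the isomerase of the isoprene unit, had the lowest log2 fold change of the set at E14.5. Its KO values were 0.765, 0.308, 0.912 and 0.487 in KO_540C, KO_540G, KO_615A and KO_615B, against 1.10 and 0.896 in wildtype. KO_540G and KO_615B were far below wildtype and KO_615A lay between the wildtype values (log2 fold change -0.81, SE 0.39, limma adjusted p = 0.745). The second probe set gave 0.787, 0.186, 0.867 and 0.390 in KO, against 1.03 and 0.973 in wildtype, with all 4 KO values below both (log2 fold change -1.08, limma adjusted p = 0.743). The 4 KO pancreata stood in the same order on both probe sets. At E16.5 Idi1 was at 0.721, 0.438, 0.800 and 0.956 in KO, against 0.854 and 1.15 in wildtype, again overlapping (log2 fold change -0.50, limma adjusted p = 0.612).

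Of the 11 enzymes that turn farnesyl diphosphate into squalene and squalene into cholesterol, 0 were called at E16.5 by limma. At an unadjusted p under 0.05 there were 3, 2 lower and 1 higher, beside 8.84% of all genes lower and 9.58% higher. On 1 probe set each, 5 were below and 6 above wildtype, with a median log2 fold change of 0.06. Dhcr7, a reductase of the final step to cholesterol, was the lowest. It was at 0.524, 0.356, 0.660 and 0.640 in KO_541J, KO_541L, KO_591C and KO_591D, against 0.985 and 1.02 in wildtype. The groups did not overlap and the log2 fold change was -0.92 (SE 0.27, limma adjusted p = 0.0964). Ebp, the isomerase that moves a double bond of the sterol ring, was at 0.609, 0.557, 0.765 and 0.808 in KO, against 1.01 and 0.987 in wildtype, also without overlap (log2 fold change -0.56, limma adjusted p = 0.172). Hsd17b7, a sterol ketone reductase, was on the other side, at 1.24, 1.02, 1.12 and 1.35 in KO, against 0.980 and 1.02 in wildtype, with KO_541L above the higher wildtype value by less than the rounding (log2 fold change 0.24, limma adjusted p = 0.395).

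Several enzymes of this stretch gave different values on different probe sets, and Fdft1, Cyp51 and Msmo1 lay on both sides of wildtype at E16.5. Fdft1, squalene synthase, is on 4 probe sets. Its chosen probe set was at 1.25, 1.38, 1.32 and 1.39 in KO at E16.5, against 1.08 and 0.917 in wildtype, while 1448130_at was at 0.646, 0.524, 0.747 and 0.910 in KO, against 0.959 and 1.04 in wildtype. On each of the 4 the KO values lay wholly on one side of wildtype, above it on 2 (log2 fold changes 0.42 and 0.43) and below it on 2 (-0.53 and -0.55), and 0 of the 4 were called by limma (4 at an unadjusted p under 0.05). Lss, which closes squalene oxide into lanosterol, had log2 fold changes of -0.08, -0.88 and -0.71, the last with all 4 KO values below wildtype (0.483 to 0.713, limma adjusted p = 0.0586). Sc5d, a sterol desaturase, had -0.11, -0.42 and -0.46. Cyp51, the demethylase of lanosterol, had 0.25, 0.27 and -0.34 at E16.5, and at E14.5 its chosen probe set was at 0.872, 0.339, 0.848 and 0.711 in KO, against 1.07 and 0.932 in wildtype (log2 fold change -0.62, limma adjusted p = 0.802).

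The remaining enzymes stayed close to wildtype on their chosen probe sets. Squalene epoxidase, Sqle, had a KO mean of 1.08 ± 0.170 (SD, n = 4) at E16.5, the sterol reductase Tm7sf2 1.10 ± 0.270, the methylsterol oxidase Msmo1 1.04 ± 0.0382 and the decarboxylating dehydrogenase Nsdhl 0.885 ± 0.107. On the other probe set of Msmo1 the E16.5 KO values were 0.723 to 1.01, with a log2 fold change of -0.19. Stard4, which carries cholesterol between membranes, was at 1.10 ± 0.154, with log2 fold changes of 0.14, -0.06 and 0.13 on its 3 probe sets. Of the 24 genes with more than 1 probe set, 11 had probe sets on both sides of wildtype at E16.5 and 9 at E14.5, so that the direction of a gene near 1 depends on the probe set.

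**Figure D3:**
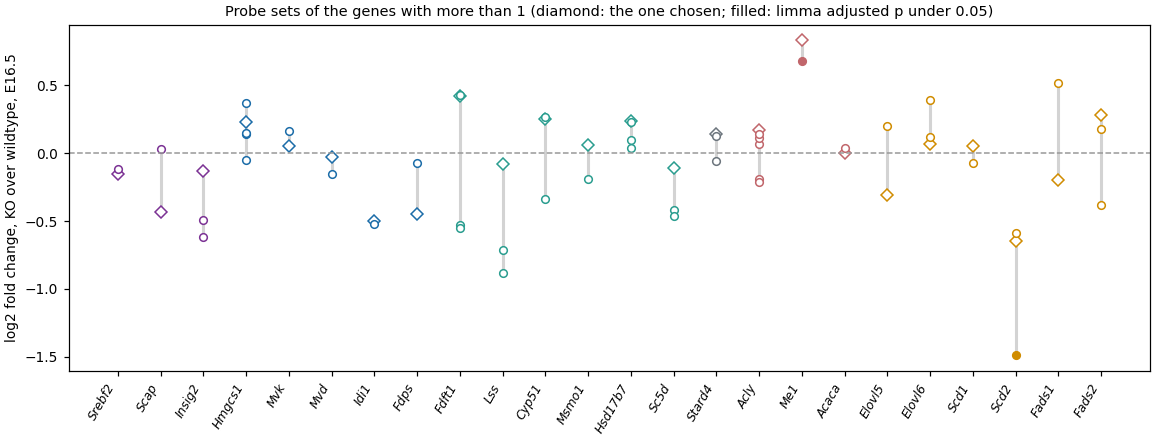
Log2 fold change of KO over wildtype at E16.5 (vertical axis) on every probe set of the 24 genes with more than 1, with the chosen probe set as a diamond and probe sets with a limma adjusted p under 0.05 filled. Fdft1 spans -0.55 to 0.43, and the 2 filled points are Scd2 at -1.49 and Me1 at 0.68.

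Of the 4 measured genes that supply and run fatty acid synthesis, 1 had a probe set that was called. Me1, the malic enzyme that supplies NADPH, rose at E16.5 on 1430307_a_at, at 1.71, 1.45, 1.95 and 1.36 in KO_541J, KO_541L, KO_591C and KO_591D, against 1.05 and 0.953 in wildtype. All 4 KO values were above both wildtype values (log2 fold change 0.68, SE 0.14, limma adjusted p = 0.0332). The chosen probe set was at 2.68, 1.88, 1.52 and 1.30 in KO, against 0.922 and 1.08 in wildtype, likewise without overlap and with the highest log2 fold change of the set, 0.83 (SE 0.22, limma adjusted p = 0.0701). At E14.5 the chosen probe set was at 0.984, 0.945, 0.912 and 0.873 in KO, against 0.984 and 1.02 in wildtype, so the KO values were at or under wildtype there. The difference between the days was 0.94 and 0.85 on the 2 probe sets (limma adjusted p = 0.284 and 0.134). The call on 1430307_a_at held in 8 of 21 alternative analyses (adjusted p = 0.0108 to 0.349) and was lost without any 1 of KO_541J, KO_541L, KO_591C, KO_615B or the 4 wildtype pancreata.

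The core enzymes of the pathway were near 1. Acaca, the carboxylase that commits acetyl-CoA to fatty acids, was at 0.990, 0.993, 1.04 and 0.963 in KO at E16.5, against 1.05 and 0.950 in wildtype, entirely within the wildtype values. Fasn, the fatty acid synthase, was at 0.935, 1.01, 0.914 and 0.877 in KO, against 1 in both wildtype pancreata, with KO_541L alone above. Acly, which makes cytosolic acetyl-CoA from citrate, is on 6 probe sets with log2 fold changes of -0.21 to 0.17 at E16.5. At E14.5 the KO means of the chosen probe sets were 1.04 ± 0.0819 for Acaca, 1.01 ± 0.130 for Fasn and 1.10 ± 0.144 for Acly (SD, n = 4 each).

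Among the 6 enzymes that elongate or desaturate fatty acids, Scd2 was lower at E16.5 on all of its 3 probe sets and fell on 1. Scd2 is a stearoyl-CoA desaturase, which makes monounsaturated fatty acids, and is a close relative of Scd1. On 1415824_at it was at 0.342, 0.265, 0.397 and 0.438 in KO_541J, KO_541L, KO_591C and KO_591D, against 0.875 and 1.12 in wildtype. It fell by 1.49 on the log2 scale (SE 0.26, limma adjusted p = 0.0154). The chosen probe set was at 0.638, 0.551, 0.740 and 0.617 in KO, against 0.865 and 1.13 in wildtype (log2 fold change -0.65, limma adjusted p = 0.0597), and the third was at 0.653, 0.577, 0.744 and 0.678 in KO, against 0.866 and 1.13 in wildtype (-0.59, limma adjusted p = 0.0935). On each of the 3 the groups did not overlap, and KO_541L was the lowest. At E14.5 1415824_at was at 0.997, 0.809, 1.37 and 0.815 in KO, against 0.774 and 1.23 in wildtype, with the groups overlapping. The 3 probe sets were at -0.15, 0.10 and -0.00 on the log2 scale that day, and the difference between the days on 1415824_at was -1.48 (limma adjusted p = 0.139). The call on 1415824_at held in 16 of 21 alternative analyses (adjusted p = 0.00774 to 0.847) and was lost without WT_628G (limma adjusted p = 0.0998), where 1 wildtype pancreas is left at that day and the spread comes from the other groups.

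**Figure D4:**
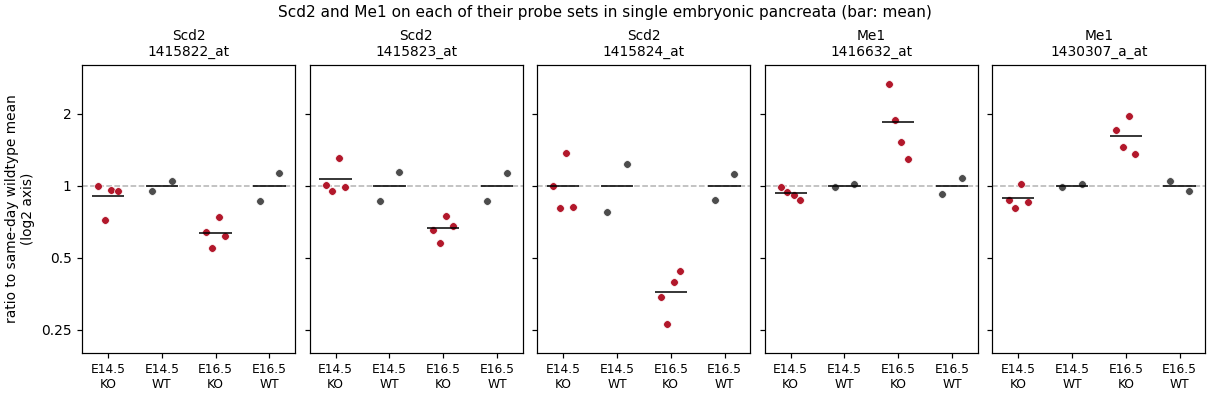
Ratio of each pancreas to the wildtype mean of its day (log2 axis) for the 3 probe sets of Scd2 and the 2 of Me1, 1 point per pancreas, KO in red left of wildtype in grey, with the group mean as a bar. At E16.5 every KO point of Scd2 lies below and every KO point of Me1 above both wildtype points.

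Scd1, the desaturase with which Scd2 shares its reaction, was at 1.37, 0.949, 0.944 and 0.926 in KO at E16.5, against 0.972 and 1.03 in wildtype, with KO_541J apart from the other 3. Its log2 fold change was 0.05 there and -0.07 on its second probe set. Fads1, which makes polyunsaturated fatty acids, had the highest log2 fold change at E14.5 among the chosen probe sets, 0.26, with values of 1.35, 0.946, 1.14 and 1.35 in KO, against 1.16 and 0.840 in wildtype, which overlapped (limma adjusted p = 0.888). At E16.5 this probe set was at 1.15, 0.836, 0.767 and 0.771 in KO, against 0.958 and 1.04 in wildtype, while its other probe set was at 1.41, 1.33, 1.45 and 1.55 in KO, against 0.946 and 1.05 in wildtype (log2 fold change 0.52, limma adjusted p = 0.127). Fads2, its partner desaturase, was divided in the same way, with log2 fold changes of 0.28, -0.38 and 0.18. The elongases Elovl5 and Elovl6 had log2 fold changes of -0.31 and 0.20, and of 0.07, 0.39 and 0.12.

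Counted over the 33 genes, all 4 KO pancreata at E16.5 lay below both wildtype pancreata in 6 (Srebf1, Scap, Insig1, Ebp, Dhcr7 and Scd2) and above both in 3 (Fdft1, Hsd17b7 and Me1). Over all genes 11.1% lay below and 15.1% above. The same 6 and, of the higher ones, Fdft1 and Me1 had an unadjusted p under 0.05, beside 8.84% of all genes lower and 9.58% higher. At E14.5 all 4 KO pancreata lay below wildtype in 2 of the 33 genes (Insig2 and Cyp51) and above it in 1 (Mvk), beside 9.42% and 8.79% of all genes. On 1 probe set each, 0 of the 33 had an unadjusted p under 0.05, beside 5.51% lower and 2.56% higher. Of all 76 probe sets 2 did, both lower, beside 2036 lower and 1054 higher of 45037. They were 1457248_x_at of Hsd17b7 (log2 fold change -0.67, limma adjusted p = 0.592) and 1451457_at of Sc5d (-0.70, limma adjusted p = 0.702). The KO effect differed between the days in 0 of 33 genes by limma, beside 0.374% of all genes. An unadjusted p under 0.05 was reached by 5, of which Srebf1, Scap and Insig1 were lower at the later day relative to wildtype and Hsd17b7 and Me1 higher. Over all 18193 genes 914 were lower and 1099 higher at that limit.

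The KO pancreata of a day did not move as one. At E14.5 KO_540G was the lowest of the 4 KO pancreata in 18 of the 33 genes (54.5%), where it was the lowest in 24.7% of all probe sets, and KO_615A was the highest in 16. Over all probe sets KO_540G was the highest in 45.7%. Its log2 ratios were also spread the most over all genes, with an interquartile range of 0.44, beside 0.20 to 0.28 in the other 3. The median log2 ratio of the 33 genes was -0.22 in KO_540G and -0.07 to 0.05 in the other 3. Besides Idi1 and Cyp51, KO_540G was at 0.405 on a probe set of Sc5d and at 0.452 on one of Msmo1. At E16.5 KO_541L was the lowest in 19 of the 33 genes (57.6%), beside 29.3% of all probe sets, and in 14 of the 17 genes of the mevalonate and squalene steps (82.4%). KO_591D was the highest in 11 of those 17 (64.7%), beside 44.3% of all probe sets. Of the 4 KO pancreata KO_541L also had the lowest acinar median and KO_591D the highest, and the part of this in the order was not tested. The interquartile range of the 33 genes was 0.37 to 0.63 log2 units in the KO pancreata of E16.5 and 0.27 in wildtype, beside 0.29 to 0.35 and 0.16 over all genes. A wildtype pancreas is part of the mean it is divided by, which draws its ratios toward 1. The KO range can therefore not be compared with the wildtype range.

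**Figure D5:**
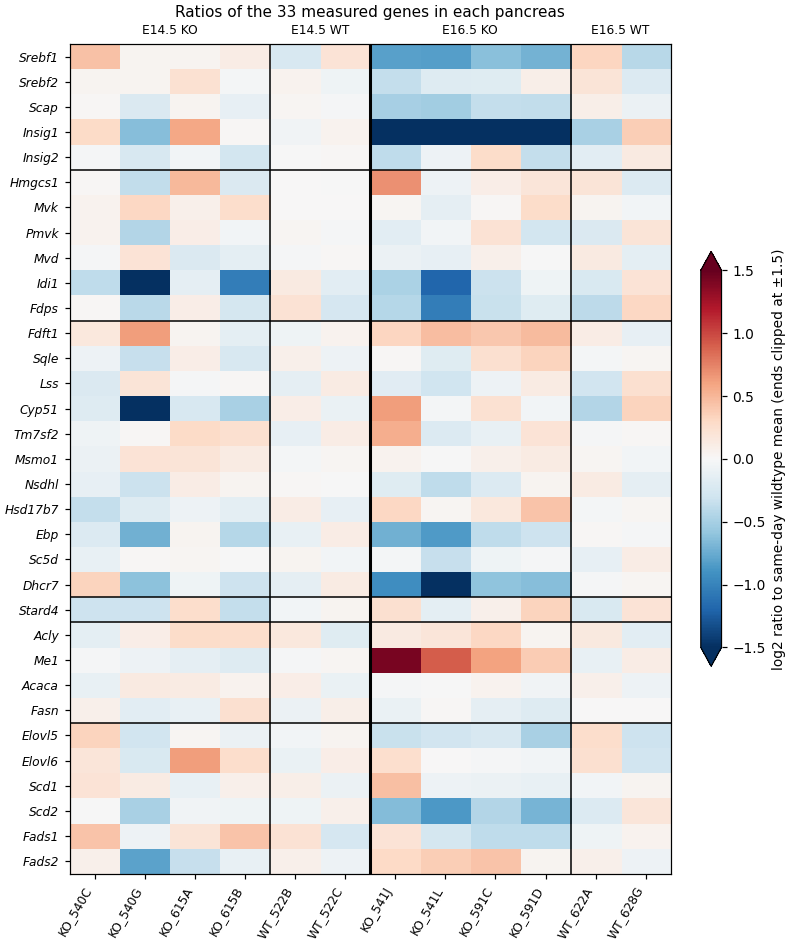
Log2 ratio of each of the 33 measured genes (rows, grouped by role) in each of the 12 pancreata (columns, KO left of wildtype at each day), on a colour scale clipped at both ends. Insig1 is the row with the deepest blue across all 4 KO pancreata at E16.5, and KO_540G is the E14.5 column with the most blue, with a median of -0.22.

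The neighbouring pathways were compared through lists of other genes of the same metabolism. Of 21 other measured genes of sterol handling 1 was called at E16.5, Tmem97, a sterol-responsive membrane protein that binds the cholesterol transporter Npc1. It was at 0.138, 0.0638, 0.328 and 0.381 in KO_541J, KO_541L, KO_591C and KO_591D, against 1.07 and 0.929 in wildtype, and fell by 2.45 on the log2 scale (SE 0.57, limma adjusted p = 0.0466). The order of the 4 KO pancreata was that of Insig1. The liver X receptor Nr1h3, the exporter Abca1 and the oxysterol enzyme Ch25h had log2 fold changes of -0.04, 0.12 and -0.17, and the median of the 21 was -0.04. Of 30 other genes of lipid synthesis 2 fell, the mitochondrial acetyl-CoA carboxylase Acacb to a mean of 0.650 ± 0.107 (SD, n = 4) and the acyl-CoA synthetase Acsl4 to 0.470 ± 0.0455 (limma adjusted p = 0.0493 and 0.0430), and their median was -0.05.

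Of 13 genes of fatty acid oxidation 2 fell at E16.5, the peroxisomal enzyme Ehhadh to 0.365 ± 0.0946 and the coactivator Ppargc1a to 0.639 ± 0.0898 (SD, n = 4 each, limma adjusted p = 0.0292 and 0.0384). Over all genes 2.15% fell at that day. The median log2 fold change of the 13 genes was -0.36, with 11 of 13 below 0, beside 7727 of all 18193 genes. In 8 of the 13 all 4 KO pancreata lay below both wildtype pancreata, beside 11.1% of all genes. Whether this list differs from the synthesis genes was not tested. At E14.5 0 genes of these 3 lists were called by limma (5 at an unadjusted p under 0.05, beside 5.51% of all genes lower and 2.56% higher). Over 21 alternative analyses the calls at E16.5 held in 8 for Tmem97, 6 for Acacb, 8 for Acsl4, 14 for Ehhadh and 9 for Ppargc1a.

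Ctnnb1, the gene targeted in the KO, has 3 probe sets, and it is not known here whether they lie in the deleted exons. At E16.5 their KO means were 0.961 ± 0.0796, 0.678 ± 0.0211 and 0.759 ± 0.164 (SD, n = 4 each), and none passed (limma adjusted p = 0.896, 0.152 and 0.531). At E14.5 the log2 fold changes were -0.14, 0.27 and -0.26. The labels of the KO pancreata could therefore not be checked on the target itself.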

How the data were processed

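RNA of 12 whole embryonic pancreata was hybridized to Affymetrix MOE430 2.0 arrays, 1 pancreas per array, after 2 rounds of amplification. Per the labels and the study's methods the authors summarized the arrays with RMA (GCOS 5.0, GeneSpring 7.1) and deposited, for each probe set, the ratio of its signal to the mean signal of the same day's wildtype arrays. The 2 wildtype ratios of a day sum to 2 within 3e-07, so abundance, a filter on dim probe sets and the change from one day to the next cannot be had from these values. The earlier day, E14.5 in the labels, is written E14.6 in the deposited design text.

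Of 45101 probe sets 64 controls were left out. Gene names came from the platform annotation: 34945 probe sets had 1 symbol, 932 several and 9160 none, and only those with 1 were named. A model of 4 groups (8 residual degrees of freedom) was fitted to the log2 ratios (limma 3.58.1, R 4.3.3), and p was adjusted by Benjamini-Hochberg over 45037 probe sets for the KO effect of each day and for the difference of the 2 effects. The fit was tested on simulated data. For a gene with several probe sets 1 was chosen by name alone: endings in _at first, then _a_at, then _s_at or _x_at, then the lowest number. Values by pancreas are given for members with a call, the SREBP regulators and the members with the largest fold change in each direction and day, and other probe sets where they disagree; values by pancreas of further members were added after their values were seen. The members, lists and markers were chosen with earlier results of these data known. The number of arrays limits the precision.

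Alternatives tried were eBayes with trend and robust options, separate fits of the 6 arrays of a day, array medians set equal, quantile normalization, array weights, the number in the array names as a random block (statmod 1.5.0), log2 of the ratio plus 0.05, the methods' t-test on all probe sets (without the methods' prior filter on fold), no _x_at or _s_at probe sets, averaging a gene's probe sets, the probe set with the highest mean, and each array left out in turn. The highest mean was that of the log2 ratios over all arrays, which holds no abundance. Promoter windows are those of RefSeq. Figures were drawn with matplotlib 3.10.9.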

Additional observations from a re-analysis of the deposited data

Results flagged for a closer look

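In 9 of 152 groups of 4 KO values, 1 for each of the 76 probe sets at each day, 1 pancreas lay far from the other 3 by Dixon's gap ratio (limit 0.829), and chance gives about 1 in 20, or 7.6. At E16.5 KO_541J stood above the others on both probe sets of Scd1, at 1.37 (the others at 0.926 to 0.949) and 1.14 (0.891 to 0.916), and on 1 of Elovl6, at 1.19 (0.975 to 1). At E16.5 KO_541L stood below on 1 probe set of Sc5d, at 0.790 (0.955 to 0.988), and KO_591C below on 1 of Acly, at 0.997 (1.06 to 1.08). At E14.5 KO_540G stood below on 1 probe set of Scd2, at 0.716 (0.955 to 0.994), and on 1 of Fdft1, at 0.734 (1.16 to 1.24). At E14.5 KO_540C stood above on Srebf1, at 1.36 (1.03 to 1.08), and KO_615A above on 1 probe set of Stard4, at 1.2 (0.779 to 0.806). None of these probe sets is one with a call. The difference of the KO effect between the days passed on 0 of the 76 probe sets by limma. An unadjusted p under 0.05 was reached by 14 of the 76, with 6 higher and 8 lower. Over all 45037 probe sets 2395 were higher and 2270 lower at that limit.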

How the results depend on the processing

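At E14.5 the count of called genes and probe sets was 0 under every alternative run. At E16.5 1 gene and 3 probe sets were called. Both counts were 0 with a trended and robust variance, with the 6 arrays of a day fitted alone and after quantile normalization. They were also 0 by the methods' t-test with Benjamini-Hochberg adjustment. This test was run here on all 45037 probe sets without the methods' prior filter on fold, and called 0 of them. At an unadjusted p under 0.05 the t-test gave 6 of the 33 genes lower and 1 higher. Over all 45037 probe sets it gave 2845 lower and 2694 higher. Array weights gave 4 genes and 8 probe sets, the block on the array-name number 2 genes, and averaging the probe sets of a gene 3 genes. Leaving out 1 pancreas gave 1 to 3 genes and 1 to 7 probe sets: 7 without KO_540G, 6 without KO_591D and 1 without WT_628G, which was Srebf1 and not Insig1 (1 wildtype pancreas is then left at E16.5 and is assumed to vary like the other groups). The count of genes whose KO effect differed between the days was 1 (Insig1) with array weights and 0 to 1 with a pancreas left out, 1 without KO_591D. The median at E16.5 was 0.04 on the probe sets with the highest mean, and -0.09 to 0.01 with a pancreas left out (0.01 without WT_628G). That highest mean was a mean of log2 ratios, in which the wildtype mean of a day is fixed. It favours the probe set that is highest in KO, so a higher median is built into this choice. It does not pick the brightest probe set. Insig1 kept a negative log2 fold change at E16.5 in all 22 alternatives (-3.09 to -1.62) and its call in 17, and 1415824_at of Scd2 did so in 21 of 21 (-1.67 to -0.97) and 16. Over the alternatives that keep single probe sets, 9 of the 76 probe sets passed at least once at E16.5. The number in the array names was not known to mark a litter, and the correlation within it was -0.0876. No such number is shared by KO and wildtype pancreata, and WT_522B and WT_522C carry the same one. A difference between the numbers therefore cannot be told apart from the KO effect, and the block does not remove it. A filter on dim probe sets could not be run on ratios.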
